A study of Mus musculus with 18 samples.

Results

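The matricellular and scar matrix genes described here were 10 genes taken by name from a count table of 30583 mouse genes: Postn, Cthrc1, Tnc, Fn1, Sparc, Thbs1, Thbs2, Thbs4, Comp and Cilp. All 10 passed the filter on low counts, as did 16311 genes in all. The samples are RNA-seq libraries of left ventricular tissue, 1 from each of 18 male C57BL/6JR mice, 12 weeks old, in 6 groups of 3. In 5 groups the left anterior descending coronary artery was tied to cause a myocardial infarction, and the mice were killed either within the first hours (at 10 min, at 1 h or at 6 h) or at 24 h or 72 h. Sham mice, labelled 0 h, had the suture passed under the artery and left untied, after the same sodium pentobarbital anaesthesia; the mice were put under isoflurane again before they were killed. No genetic change or drug treatment is named for any group. RNA came from the myocardium of the infarcted left ventricle. A sham group for each later time is not among the groups, so time after surgery and time after infarction cannot be told apart.

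Matricellular proteins are secreted into the extracellular matrix, where they act less as structural fibres than as signals: they bind collagens, growth factors and cell surface receptors such as integrins. Most are scarce in the resting adult heart and are made again after injury, chiefly by fibroblasts that turn into matrix-producing myofibroblasts. Postn encodes periostin, which binds collagen and integrins and marks activated cardiac fibroblasts. Cthrc1 encodes a secreted collagen triple helix repeat protein, Tnc the de-adhesive glycoprotein tenascin C, Fn1 fibronectin, the main adhesive protein of the provisional matrix, and Sparc the collagen-binding protein osteonectin. Thbs1, Thbs2 and Thbs4 encode thrombospondins. Comp encodes cartilage oligomeric matrix protein, the fifth member of that family. Cilp encodes cartilage intermediate layer protein, which binds the growth factor TGF-beta.

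The 10 genes lie on 10 chromosomes of mouse build mm10 (GENCODE M21 annotation), and all are protein coding. Postn (ENSMUSG00000027750) spans chr3:54361109-54391037 on the plus strand, Cthrc1 (ENSMUSG00000054196) chr15:39076932-39087121 on plus, Tnc (ENSMUSG00000028364) chr4:63959785-64047015 on minus, Fn1 (ENSMUSG00000026193) chr1:71585520-71653200 on minus, and Sparc (ENSMUSG00000018593) chr11:55394500-55423183 on minus. Thbs1 (ENSMUSG00000040152) spans chr2:118111876-118127133 on plus, Thbs2 (ENSMUSG00000023885) chr17:14665500-14694235 on minus, Thbs4 (ENSMUSG00000021702) chr13:92751590-92794818 on minus, Comp (ENSMUSG00000031849) chr8:70373558-70382066 on plus, and Cilp (ENSMUSG00000042254) chr9:65265180-65280605 on plus. Exons of Tnc and Fn1 overlap an antisense gene; 8030451A03Rik, opposite Tnc, held 48 counts over all 18 libraries and Apol7d, opposite Fn1, 19. Exons of Thbs1 overlap the antisense gene Gm29233, for which no count was used here. Whether reads were counted by strand is not given in the sources used here, so reads of these pairs cannot be told apart.

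Promoter windows of 6 of the 10 genes were found in RefSeq (build GRCm38.p6, the assembly of mm10): Postn, Tnc, Sparc, Thbs2, Thbs4 and Cilp. The 120 bases just before the start are printed for 4 of them: Postn, first called at 24 h; Tnc, called from 6 h; and Thbs2 and Thbs4, which belong to 1 family and moved in opposite directions at 24 h. Each is written 5′ to 3′ on the strand of its gene, with matches to the searched motifs in capitals.
Postn (chr3:54360987-54361106, plus strand): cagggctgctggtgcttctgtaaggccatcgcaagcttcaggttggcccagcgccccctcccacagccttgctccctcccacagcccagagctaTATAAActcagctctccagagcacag
Tnc (chr4:64047016-64047135, minus strand): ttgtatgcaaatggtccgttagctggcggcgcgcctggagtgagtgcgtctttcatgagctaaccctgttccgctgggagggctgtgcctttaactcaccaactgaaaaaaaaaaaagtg
Thbs2 (chr17:14694263-14694382, minus strand): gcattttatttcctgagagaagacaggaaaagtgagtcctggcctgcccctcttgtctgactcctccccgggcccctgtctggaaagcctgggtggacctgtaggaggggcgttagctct
Thbs4 (chr13:92794819-92794938, minus strand): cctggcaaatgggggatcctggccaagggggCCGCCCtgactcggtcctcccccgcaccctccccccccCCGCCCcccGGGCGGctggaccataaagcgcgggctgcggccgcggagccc
The search covered 250 bases before each start, on both strands, for 5 motifs. The TATA box was searched as TATAAA. The letters taken for AP-1, a factor of early response genes, were TGANTCA. For the TEAD factors, partners of YAP, they were GGAATG. The GC box, bound by Sp1, was searched as GGGCGG, and the CArG box of serum response factor by its name's usual pattern. Counting the last base before the start as -1, the capitals mark a TATA box at -26 to -21 of Postn and 3 GC boxes of Thbs4, at -89 to -84, -51 to -46 and -42 to -37. Further upstream, Tnc held TATAAA at -126 to -121 and a GC box at -167 to -162. Thbs2 held TATAAA on the other strand at -126 to -121, and Thbs4 a pair of TEAD matches that overlap by a base. None of the 5 motifs as searched was found in the windows of Sparc and Cilp. Neither AP-1 nor CArG letters were found in any of the 8 windows of these genes. The TATA search took TATAAA alone, so the letters tatataag in the Cilp window were not a match. Postn and Tnc each had a further window, not printed here. That of Postn held no match. That of Tnc began from a start further downstream and overlapped the printed window. Its TATAAA at -205 to -200 and GC box at -246 to -241 were the same bases as the matches given above. It also held, unmatched, tatataag closer to the start. Over 32851 promoter windows of this length, 12.4% held TATAAA, 6.75% the AP-1 letters, 12.6% the TEAD letters, 32.7% the GC box and 1.47% a CArG box.

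Total counts per library ranged from 18.2 M to 25.1 M (M, 1000000 counts). Values below are counts per 1000000 (CPM) scaled between libraries by the trimmed mean of M-values (TMM), with the SD over the 3 mice of a group. A gene was called where edgeR's quasi-likelihood test gave an adjusted p under 0.05 over all genes tested. The labels also give cardiomyocytes as the cell type, but markers of other cells were present in all libraries: in sham mice the summed level of 8 cardiomyocyte markers was 57619 to 62642 CPM, that of 8 fibroblast markers 2115 to 2372, of 6 endothelial markers 1067 to 1190 and of 6 macrophage markers 227.0 to 258.3. The summed marker levels moved with time. Fibroblast markers summed to 1199 to 1571 CPM at 24 h and 7419 to 9263 at 72 h. At 72 h 7 of 8 were called higher and 1, Gsn, lower. A few genes set much of these sums. Col1a1 and Col1a2 had means of 3549 and 2971 CPM at 72 h, against 74.4 and 113.6 in sham. Gsn went from 1465 in sham to 643.2 at 24 h, and Pdgfra from 40.1 in sham to 79.3 at 72 h. Cardiomyocyte markers summed to 25443 to 39440 CPM at 24 h and 15296 to 20119 at 72 h, and macrophage markers to 1786 to 2246 at 72 h. One library stood apart in another way: 6 h replicate 1 held transcripts typical of the atrium, with Sln at 42.6 CPM, Myl7 at 49.3 and Myl4 at 59.1, against 0, 0.0478 and 1.96 in 6 h replicate 2 and 0, 0 and 1.6 in replicate 3. Of the 4 atrial markers listed, 3 were tested and 2 called higher at 6 h, against 16.3% of all genes. The other listed marker, Nppa, was not confined to that library. It was at 390.7, 111.7 and 284.5 CPM at 6 h, with means of 145.2 in sham and 668.0 at 24 h. The part of atrial tissue in the 6 h values was not tested, and the 6 h results of Thbs1, Tnc and Thbs4 are given with and without this library. In such bulk tissue a change in the number of cells of a type and a change in RNA per cell cannot be told apart.

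The 10 genes were called in 3 steps after the ligation. None was called at 10 min, where 0.0736% of all genes tested were called; none had an unadjusted p under 0.05, and DESeq2 and limma called 0. At 1 h edgeR, DESeq2 and limma again called 0 of the 10 (edgeR called 0.294% of all genes), and 1 of them, Thbs1, had an unadjusted p under 0.05. Of all 16311 genes tested, 1144 had an unadjusted p under 0.05 at 10 min and 899 at 1 h. At 6 h, 3 were higher than in sham (Thbs1, Tnc and Thbs4; 16.3% of all genes were called higher and 28.4% in either direction). At 24 h, 7 were higher and 2, Thbs2 and Comp, lower, against 23.7% of all genes called higher and 20.2% lower (43.8% either way); Cilp was the one not called. At 72 h all 10 were higher, against 34.2% of all genes higher and 66.4% called in either direction. Tested over all times together, 10 of 10 were called, as were 78.4% of all genes.

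Separation of the TMM-scaled levels of single libraries gave nearly the same picture. At 10 min all 3 libraries of Tnc, Fn1 and Thbs1 were above all 3 sham libraries (3 of 10, against 11.0% of all genes) and those of Comp below (1 of 10, against 9.07%). At 1 h only Thbs1 was separate and higher (1 of 10, against 8.25%), and at 6 h Fn1 joined the 3 called genes (4 of 10, against 23.1%). At 24 h the 7 genes called higher and the 2 called lower were the separate ones (28.0% and 25.7% of all genes), and at 72 h all 10 were separate and higher (39.3%).

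The median log2 fold change of the 10 genes against sham was 0.2 at 10 min, 0.12 at 1 h, 0.3 at 6 h, 2.38 at 24 h and 4.4 at 72 h. Over all genes tested it lay between -0.01 and 0.03 at these times. Counts of the 10 genes made up 0.0569% ± 0.00831 of all counts in sham libraries (SD, n = 3), 0.095% ± 0.0295 at 6 h, 0.194% ± 0.0659 at 24 h and 0.947% ± 0.118 at 72 h. The rise in this share was late: the 72 h libraries lay between 0.853% and 1.08%, above the highest 24 h library at 0.266%.

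**Figure D1:**
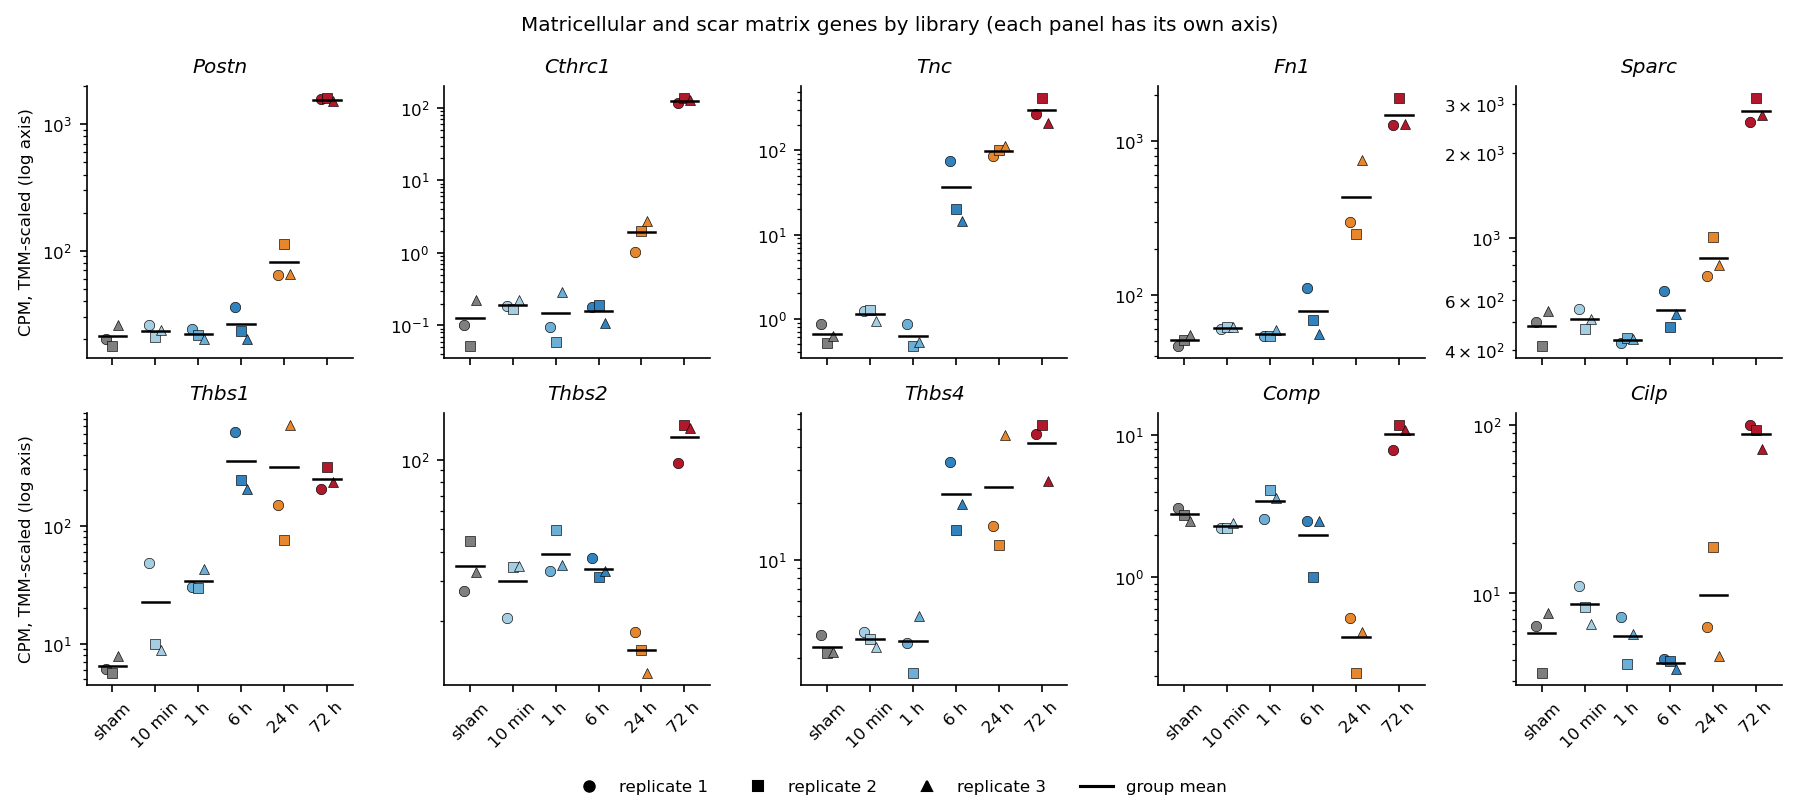
TMM-scaled CPM of each gene (log axis, own scale per panel) in the 3 libraries of each group, with replicates as symbols and group means as black bars. Thbs1, Tnc and Thbs4 are already far above sham at 6 h, Postn and Cthrc1 rise most between 24 h and 72 h, and Thbs2 and Comp dip at 24 h.

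Thbs1, an activator of latent TGF-beta that is stored in platelets, was separate from sham at every time, although not called before 6 h. Its level was 6.07, 5.65 and 7.82 CPM in the 3 sham mice, 48.6, 9.95 and 8.88 at 10 min, and 29.9, 29.8 and 42.9 at 1 h. Every library at both times was above every sham library, and 1 mouse at 10 min was far above the other 2; without it the 10 min mean of 22.5 CPM became 9.42. The edgeR test called neither time: the log2 fold change was 1.76 ± 0.88 (SE) at 10 min (adjusted p = 0.76) and 2.39 ± 0.88 at 1 h (adjusted p = 0.746). At 1 h the call depended on which libraries set the spread, since a fit of the 6 sham and 1 h libraries alone gave the same fold change with an adjusted p of 9.4e-05.

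At 6 h Thbs1 reached 618.9, 245.4 and 204.7 CPM, a fold change of 54.5 over sham (log2 5.77 ± 0.96, adjusted p = 0.00086). Without 6 h replicate 1, the library with atrial transcripts, the 6 h mean was 225.1 in place of 356.3 CPM and the log2 fold change 5.1 (adjusted p = 0.00356). The 24 h libraries were spread widely, at 150.1, 76.0 and 712.0 CPM, and those at 72 h lay close together, at 203.0, 314.6 and 233.0. Both later times were called against sham (log2 5.58 ± 0.96, adjusted p = 0.000554, and 5.26 ± 0.95, adjusted p = 0.000263). The step from 1 h to 6 h was called (log2 3.38 ± 0.84, adjusted p = 0.0115), but not without 6 h replicate 1 (adjusted p = 0.0522) or 1 h replicate 2 (adjusted p = 0.0501). No later step was called. Without 24 h replicate 3 the 24 h mean fell from 312.7 to 113.1 CPM, and the difference between 72 h and 24 h turned from -0.32 to 1.14 on the log2 scale (adjusted p = 0.189).

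The summed markers of neutrophils and platelets moved with Thbs1 from library to library at 6 h and 24 h. The summed level of 5 neutrophil markers (S100a8, S100a9, Csf3r, Retnlg and Mmp9) was 2.8 to 4.36 CPM in sham; by replicate number it was 686.8, 255.4 and 93.4 at 6 h and 162.1, 39.8 and 693.1 at 24 h. The 5 platelet markers summed to 18.2 to 19.8 CPM in sham, to 69.8, 29.7 and 21.6 at 6 h and to 55.9, 39.9 and 103.9 at 24 h. In both groups the mouse with the most Thbs1 had the highest sums. The order of the 3 mice was the same for Thbs1 and for both sums. Within the platelet list, Itga2b, Gp9 and Gp1bb were higher in 6 h replicate 3 than in replicate 2, unlike Thbs1. The same held for Csf3r in the neutrophil list (44.2, 12.6 and 13.9 CPM at 6 h). Most of the 6 h neutrophil sums came from S100a8 (249.7, 97.0 and 30.5 CPM) and S100a9 (335.0, 121.2 and 38.8). By replicate number, neutrophil sums were 20.1, 7.6 and 5.31 CPM at 10 min and 22.9, 14.4 and 17.4 at 1 h. Platelet sums were 28.3, 16.5 and 30.4 at 10 min and 23.5, 28.5 and 25.2 at 1 h. Of these, only the 10 min neutrophil sums had the order of Thbs1. At 72 h, with Thbs1 at 203.0 to 314.6 CPM, neutrophil markers summed to 56.3 to 69.7 CPM. Platelet markers summed to 141.0 to 155.8, the highest platelet sums of the 6 groups, most of it from Pf4 (mean 135.3 CPM). Gp1bb was also highest at 72 h (2.11 CPM), but Ppbp, Itga2b and Gp9 were not. Their 72 h means were 8.0, 3.45 and 0.237 CPM, against 9.81, 6.73 and 1.66 at 6 h. The part of neutrophils and platelets in the Thbs1 values was not tested.

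Tnc was close to absent in sham hearts and was called from 6 h on. Sham libraries held 17, 10 and 14 counts, or 0.859, 0.519 and 0.622 CPM. The 10 min libraries held 1.25, 1.26 and 0.949 CPM and the 1 h libraries 0.869, 0.474 and 0.525. At 6 h the level was 75.4, 20.1 and 14.4 CPM, with no overlap with sham, and 6 h replicate 1, the library with atrial transcripts, carried most of the mean: 36.6 ± 33.7 CPM with it and 17.3 without. The fold change over sham was 54.3 (log2 5.76 ± 0.68, adjusted p = 6.86e-05), and the log2 value without that library 4.69 (adjusted p = 4.99e-07).

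Tnc then went on to 85.6, 100.6 and 112.4 CPM at 24 h and 271.9, 414.4 and 211.5 at 72 h. Against sham the log2 fold change was 7.21 ± 0.69 at 24 h (adjusted p = 6.68e-06) and 8.8 ± 0.7 at 72 h (adjusted p = 1.09e-07). The 24 h libraries lay much closer together than the 6 h libraries, with an SD of 13.4 about a mean of 99.5 CPM. The step from 6 h to 24 h was called narrowly (log2 1.45 ± 0.46, adjusted p = 0.0316). It was lost in 6 alternatives, among them those without 6 h replicate 2 (adjusted p = 0.108), 6 h replicate 3 (0.0827), 24 h replicate 2 (0.0624) or 24 h replicate 3 (0.0816). The step from 24 h to 72 h was called (log2 1.59 ± 0.45, adjusted p = 0.00977).

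Thbs4, a thrombospondin of muscle and tendon matrix, had the smallest early rise of the 3 early genes. Sham libraries held 3.94, 3.16 and 3.2 CPM, and the ranges at 10 min and 1 h overlapped theirs. The 6 h values were 33.1, 14.4 and 19.7 CPM, a 6.5-fold increase (log2 2.7 ± 0.51, adjusted p = 0.00176); without 6 h replicate 1 the log2 value was 2.31 (adjusted p = 0.00941). Values of 15.2, 11.9 and 46.3 CPM followed at 24 h (log2 2.82 ± 0.51, adjusted p = 0.000705) and 47.1, 52.2 and 26.3 at 72 h (log2 3.61 ± 0.52, adjusted p = 2.76e-05). As for Thbs1, the highest 6 h library was replicate 1 and the highest 24 h library replicate 3. Without 24 h replicate 3 the 24 h mean fell from 24.5 to 13.6 CPM; the step from 24 h to 72 h, not called with it (log2 0.79 ± 0.44, adjusted p = 0.157), was then called (log2 1.62, adjusted p = 0.00127), as it was with limma or with scaling by library totals.

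Fn1, the provisional matrix protein on which infiltrating cells and fibroblasts move, was called from 24 h. It lay at 46.6, 51.3 and 55.3 CPM in sham and at 59.9, 61.9 and 62.4 at 10 min, above all sham libraries but by 0.27 ± 0.34 on the log2 scale (adjusted p = 0.939). The 6 h libraries, at 111.4, 68.8 and 56.2 CPM, also lay above sham and were not called (log2 0.62 ± 0.34, adjusted p = 0.188), although leaving out 24 h replicate 3 gave an adjusted p of 0.026. At 24 h the values were 299.7, 247.6 and 749.1 CPM, 8.46-fold above sham (log2 3.08 ± 0.36, adjusted p = 2.05e-05). The same library, 24 h replicate 3, was the high one; without it the mean fell from 432.2 to 273.7 CPM and the log2 fold change was 2.42 (adjusted p = 1.16e-06). At 72 h Fn1 stood at 1280, 1896 and 1283 CPM (log2 4.86 ± 0.39, adjusted p = 5.07e-08).

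Sparc had the highest level of the 10 throughout and the smallest relative rise among the genes called higher at both 24 h and 72 h. Sham libraries held 499.8, 411.5 and 548.6 CPM. The values were 645.9, 480.3 and 534.5 CPM at 6 h, overlapping sham, and 730.0, 1004 and 801.2 at 24 h, all above it. The increase was 1.74-fold at 24 h (log2 0.8 ± 0.14, adjusted p = 0.000258) and 5.78-fold at 72 h, where the libraries held 2589, 3130 and 2725 CPM (log2 2.53 ± 0.15, adjusted p = 1.2e-10). The step from 6 h to 24 h (log2 0.61 ± 0.14, adjusted p = 0.00369) was not called when those 6 libraries were fitted alone (adjusted p = 0.075).

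Postn stayed near its sham level for the first 6 h and made most of its rise between 24 h and 72 h. It was measured at 19.9, 17.5 and 25.9 CPM in sham and at 35.8, 22.9 and 19.8 at 6 h, which overlap (log2 0.31 ± 0.23, adjusted p = 0.342). At 24 h the values were 63.7, 113.1 and 65.5 CPM (log2 1.94 ± 0.23, adjusted p = 1.14e-05), and at 72 h 1577, 1603 and 1516 CPM. The 72 h mice were nearly alike, with a coefficient of variation of 2.87%. Periostin mRNA was thus 74.1-fold above sham at 72 h (log2 6.21 ± 0.27, adjusted p = 1.46e-11), and the 24 h mean was 5.16% of the 72 h mean. The step from 24 h to 72 h measured 4.28 ± 0.25 on the log2 scale (adjusted p = 9.89e-10).

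Cthrc1, which like Postn is known from activated cardiac fibroblasts, had the largest fold change of the 10. It was at the edge of detection in sham, with 2, 1 and 5 counts, and stayed there through 6 h, with 3, 4 and 2 counts. At 24 h the libraries held 24, 56 and 54 counts, or 1.04, 1.98 and 2.78 CPM (log2 3.82 ± 0.43, adjusted p = 5.3e-06). At 72 h they held 3688, 4425 and 3983 counts, or 116.3, 134.7 and 126.7 CPM. The ratio of summed counts per scaled library was 14.6 at 24 h over sham (95% interval 7.18 to 34.4) and 970.1 at 72 h (492.2 to 2248); these intervals cover counting error only. The fitted log2 fold change at 72 h was 9.86 ± 0.32 (adjusted p = 2.18e-13) and 10.57 without sham replicate 3, the sham library with 5 counts. The mean at 24 h was 1.54% of that at 72 h, so the step between these times (log2 6.04 ± 0.23, adjusted p = 6.57e-12) was larger than that of any other of the 10.

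Cilp was called at 72 h alone among the times against sham. It was measured at 6.42, 3.37 and 7.6 CPM in sham and at 4.05, 3.97 and 3.57 at 6 h (log2 -0.59 ± 0.5, adjusted p = 0.409). At 24 h one library stood apart: 6.3, 19.0 and 4.23 CPM. The mean was 9.85 CPM with 24 h replicate 2 and 5.26 without it, and the log2 difference from sham moved from 0.78 ± 0.46 (adjusted p = 0.182) to -0.14. The step from 6 h to 24 h was called at an adjusted p of 0.0469 and was lost in 18 alternatives, with 24 h replicate 2 left out among them (log2 0.46, adjusted p = 0.367). At 72 h all 3 libraries were high, at 100.4, 93.9 and 72.3 CPM, or 15.2-fold above sham (log2 3.93 ± 0.47, adjusted p = 4.38e-06).

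Thbs2 and Comp fell at 24 h and then rose above sham. Thbs2, a thrombospondin that does not activate TGF-beta and is made by fibroblasts, held 27.1, 44.5 and 32.6 CPM in sham and 37.5, 31.0 and 32.9 at 6 h. At 24 h it held 18, 15.1 and 12.0 CPM, all below the lowest sham library, 2.3-fold lower (log2 -1.2 ± 0.24, adjusted p = 0.000949). At 72 h it held 97.0, 141.1 and 136.6 CPM, 3.6-fold above sham (log2 1.85 ± 0.23, adjusted p = 3.94e-06) and 8.29-fold above 24 h (log2 3.05 ± 0.25, adjusted p = 8.62e-08).

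Comp went through the same course with a deeper trough. Sham libraries held 3.08, 2.75 and 2.49 CPM, and 10 min libraries 2.24, 2.23 and 2.4, just below them but not called (log2 -0.28 ± 0.29, adjusted p = 0.925). Values of 2.56, 4.09 and 3.61 CPM at 1 h and 2.5, 1.0 and 2.5 at 6 h did not overlap each other; that step missed the threshold (log2 -0.78 ± 0.3, adjusted p = 0.0626) and passed it in 7 alternatives, with DESeq2 and limma among them. At 24 h the libraries held 12, 6 and 8 counts, or 0.518, 0.212 and 0.412 CPM, 7.37-fold below sham (log2 -2.88 ± 0.36, adjusted p = 1.14e-05). At 72 h Comp was measured at 7.92, 11.8 and 10.9 CPM, 3.68-fold above sham (log2 1.88 ± 0.27, adjusted p = 7.05e-06).

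Fibroblast genes did not move as one at 24 h, when Thbs2 and Comp were low. The sum of the 8 markers was lower in every 24 h library than in every sham library, but 3 of them were called higher (Pdgfra, Col1a1 and Col1a2) and 4 lower. Gsn was the largest part of that sum, with means of 1465 CPM in sham and 643.2 at 24 h, so the sum does not speak for the other markers. Col1a1, a chain of type I collagen, had means of 74.4 CPM in sham and 168.9 at 24 h; Dcn, which encodes decorin, 411.8 and 237.5. The 6 cartilage and tendon markers summed to 5.34 to 5.82 CPM in sham, 14.3 to 17.0 at 24 h and 13.6 to 16.2 at 72 h, most of it from Scx. Only 2 of the 6 were high enough to test, of which 1 was called higher at 24 h and 2 at 72 h; Acan, the cartilage proteoglycan aggrecan, had means of 0.273 CPM in sham and 2.49 at 72 h. Matn3 had no count before 72 h, and Tnmd none in sham or at 24 h. The part of these cells in the changes of Thbs2, Comp and Cilp was not tested.

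**Figure D2:**
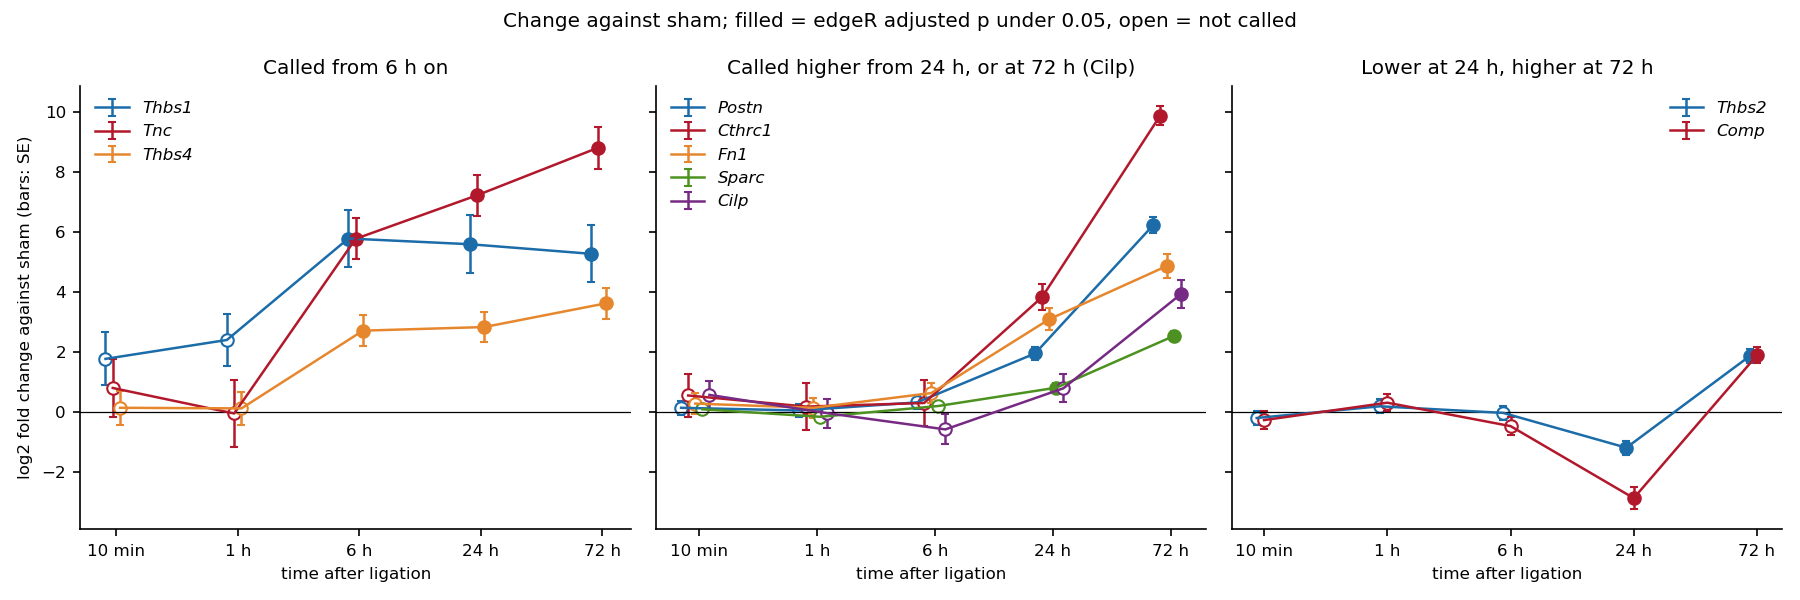
Log2 fold change of each gene against sham at the 5 times (points; bars are SE from the edgeR fit; filled where the adjusted p was under 0.05), in panels chosen by the time course seen. Thbs1 levels off after 6 h at 5.26 to 5.77 while Tnc goes on to 8.8; Cthrc1 reaches 9.86 at 72 h; Comp goes from -2.88 at 24 h to 1.88 at 72 h.

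From one time to the next, 0 of the 10 genes were called between 10 min and 1 h (edgeR called 0.307% of all genes), with 0 at an unadjusted p under 0.05 and 0 by DESeq2 and limma. Between 1 h and 6 h, 3 were called higher (14.5% of all genes): Thbs1, Tnc and Thbs4. Between 6 h and 24 h, 6 were higher (Postn, Cthrc1, Tnc, Fn1, Sparc and Cilp; 14.2% of all genes) and 2, Thbs2 and Comp, lower (13.7%). Between 24 h and 72 h, 8 were higher (24.4%), and Thbs1 and Thbs4 were not called.

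Ratios between members within a library do not depend on scaling between libraries. They are log2 ratios of counts per length, tested against sham by a two-sided exact permutation test; with 3 against 3 libraries the smallest p is 0.1, and over 35 comparisons that p adjusts to 0.146, so no ratio could pass 0.05. Values are given with whether the ranges overlapped. The Thbs1/Thbs2 ratio was -2.2, -3.01 and -2.1 in sham, so Thbs2 was the more abundant transcript. It turned to 4.01, 2.95 and 2.6 at 6 h and to 3.02, 2.3 and 5.86 at 24 h, and came down to 1.03, 1.12 and 0.73 at 72 h. All later libraries lay above all sham libraries (exact p = 0.1 at each time).

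The sister genes Comp and Thbs4 started level and parted. Their ratio was -0.21, -0.05 and -0.21 in sham, -3.58, -3.7 and -2.82 at 6 h, and -4.73, -5.66 and -6.66 at 24 h. At 72 h, with both genes above sham, it had come back part of the way, to -2.42, -2.0 and -1.12. The ranges at 10 min and from 6 h on were separate from sham (exact p = 0.1 each), those at 1 h not.

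Tnc gained on Fn1 by 6 h and had lost part of the gain at 72 h, when every library was below every 6 h library. The Tnc/Fn1 ratio was -5.7 ± 0.46 in sham and -5.95 ± 0.51 at 1 h; it was -0.85 ± 0.76 at 6 h, -1.36 ± 0.73 at 24 h and -1.75 ± 0.22 at 72 h (SD, n = 3). Postn gained on Sparc late: the ratio was -5.74 ± 0.12 in sham, -5.64 ± 0.3 at 6 h, -4.63 ± 0.25 at 24 h and -2.04 ± 0.13 at 72 h. Cthrc1 in turn gained on Postn, from -5.07 ± 0.77 in sham to -2.89 ± 0.77 at 24 h and -1.08 ± 0.11 at 72 h. Cilp lost ground to Postn, from -0.89 ± 0.4 in sham to -3.12 ± 0.21 at 72 h. Thbs4, level with Thbs1 in sham at -0.03 ± 0.34, was at -3.01 ± 0.45 at 6 h and -1.73 ± 0.52 at 72 h. At 72 h all 7 ratios were separate from sham.

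**Figure D3:**
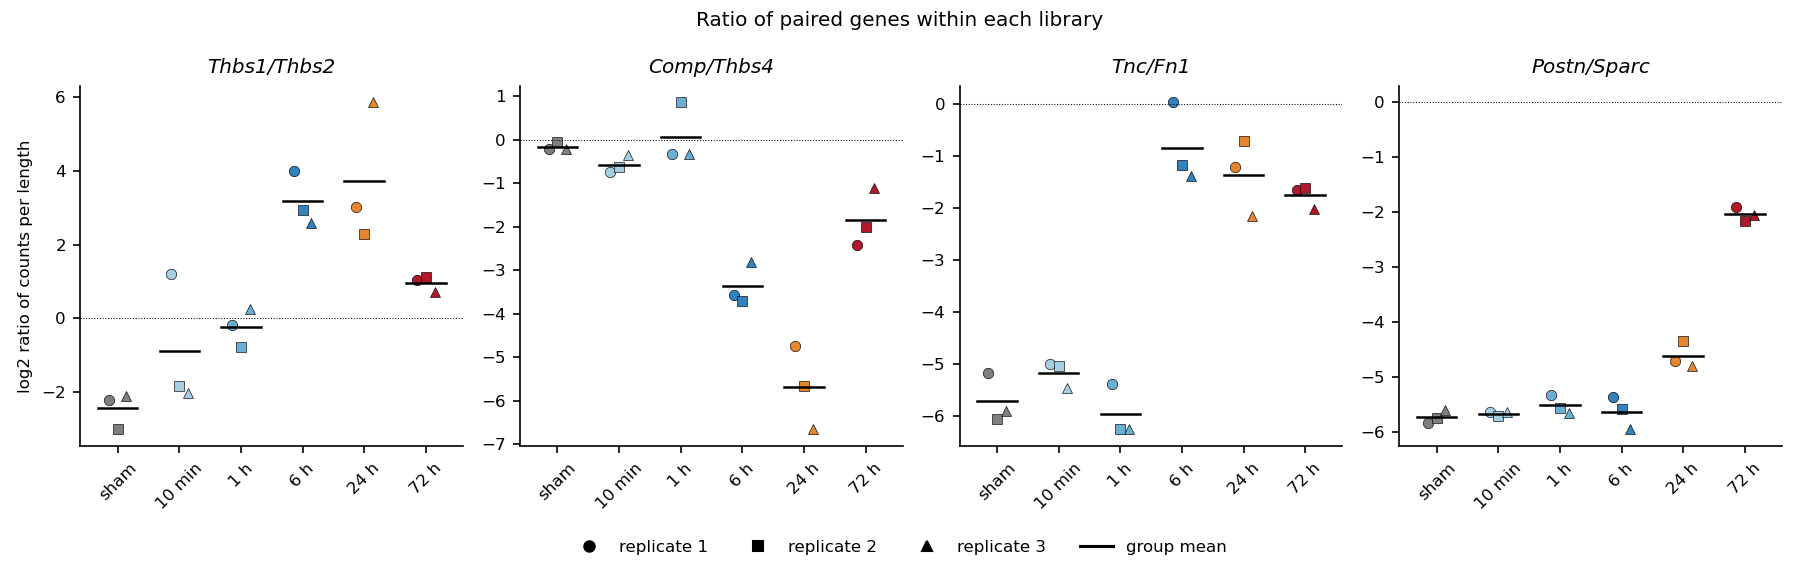
Log2 ratio of counts per length of 4 gene pairs within each library (symbols: replicates; black bars: group means; dotted line: equal levels). Thbs1/Thbs2 changes sign between 1 h and 6 h, Comp/Thbs4 falls to a mean of -5.68 at 24 h, Tnc/Fn1 moves at 6 h and Postn/Sparc between 24 h and 72 h.

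The order of the 10 genes by level changed over the time course. Levels per length are TMM-scaled FPKM, fragments per kilobase per 1000000, from the counts and the authors' gene lengths. In sham, Sparc at 128.5 ± 18.4 FPKM was far above the others. Thbs2 at 5.87 ± 1.5 and Fn1 at 4.37 ± 0.372 had overlapping ranges, and Postn followed at 2.42 ± 0.493. Cilp at 1.36 ± 0.513, Thbs1 at 1.07 ± 0.189, Thbs4 at 1.04 ± 0.134 and Comp at 0.935 ± 0.101 could not be ordered, each overlapping the next. Tnc at 0.0858 ± 0.0225 and Cthrc1 at 0.0845 ± 0.0592 shared the bottom.

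The leading genes after Sparc differed between times. At 10 min the second level was that of Fn1 at 5.25 ± 0.112, overlapping Thbs2 at 5.06 ± 1.36, and at 1 h that of Thbs2 at 6.64 ± 1.52, overlapping Thbs1 at 5.63 ± 1.24. At 6 h Thbs1 was second with 58.7 ± 37.6 FPKM, separate from the rest, while Thbs4, Fn1, Thbs2, Tnc and Postn, from 6.81 ± 2.93 down to 3.01 ± 0.978, each overlapped the next. At 24 h Thbs1 at 51.5 ± 57.3 overlapped Fn1 at 37.0 ± 23.6, and Comp at 0.128 ± 0.0523 was the lowest.

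At 72 h the first 5 ranges were separate: Sparc 743.0 ± 74.4 FPKM, Postn 179.9 ± 5.17, Fn1 127.2 ± 30.4, Cthrc1 85.1 ± 6.23 and Thbs1 41.2 ± 9.51, which overlapped Tnc at 38.5 ± 13.4. Thbs2 at 21.1 ± 4.09 and Cilp at 20.9 ± 3.45 overlapped, and Thbs4 at 12.7 ± 4.17 and Comp at 3.44 ± 0.688 came last. Cthrc1 had moved from the bottom to the fourth level. The lengths used for Cthrc1 (1480 bases) and Thbs2 (5922) differ from the merged exon lengths of GENCODE M21 (1593 and 7003), so their places against close neighbours depend on the length chosen.

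**Figure D4:**
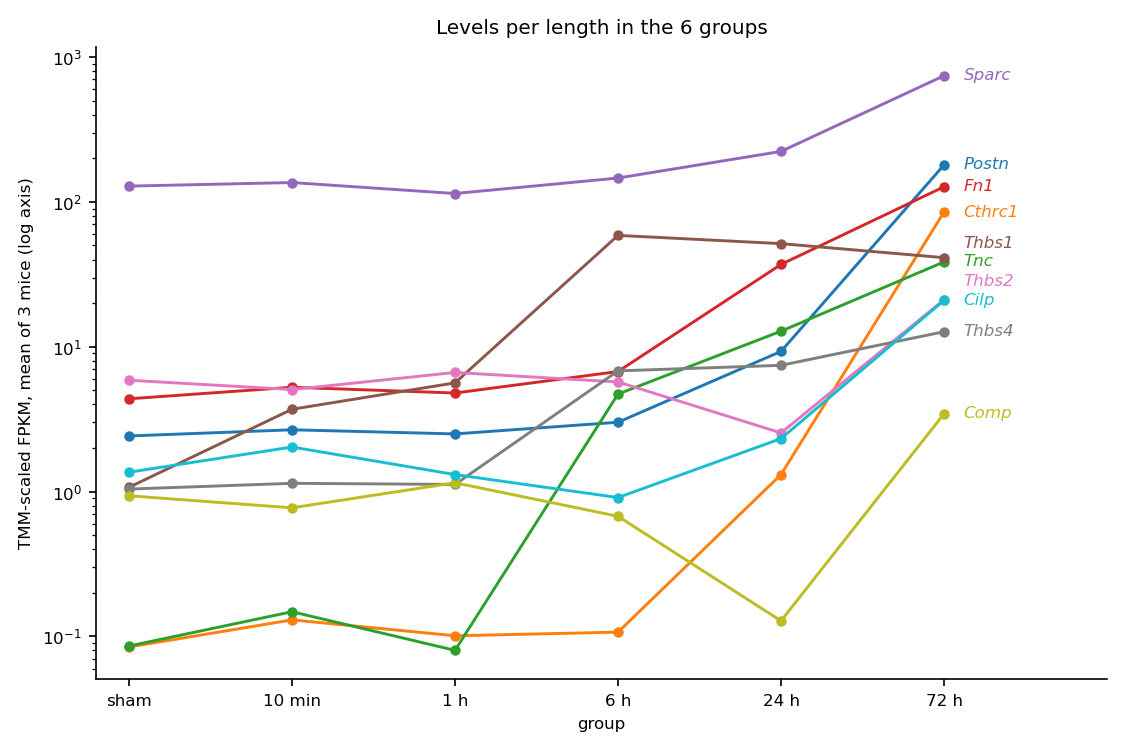
Mean TMM-scaled FPKM of the 10 genes in each group (log axis; lines join means of different mice). Sparc leads throughout, Thbs1 is second at 6 h and 24 h, and Cthrc1 goes from 0.107 at 6 h to 85.1 at 72 h.

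For each member, the genes with the nearest time course were found among all genes tested, as the root-mean-square (RMS) difference of log2 CPM over the 18 libraries after each gene's own mean was removed. The measure describes likeness in these libraries, which share groups and depth. Thbs1 was nearest to Ccl2, a monocyte chemokine (RMS difference 0.53), and Csf3r, the neutrophil receptor for G-CSF (0.58), against its own RMS spread of 2.27. Postn was nearest to Tpx2, a mitotic spindle gene (0.3), and Trem2, a macrophage receptor (0.38). Cthrc1 was nearest to Gpnmb (0.71) and to P4ha3, a collagen prolyl hydroxylase subunit (1.05), and Tnc to Timp1, a metalloproteinase inhibitor (0.74), and Adam8 (0.88).

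Fn1 was nearest to Serpinb1a (0.25) and Cotl1 (0.3), Sparc to Dap (0.14) and Vat1 (0.17), and Thbs4 to Cd44, the hyaluronan receptor, and Ubash3b (0.41 each). The genes nearest to Thbs2 were Spc24, a kinetochore gene (0.36), and Itm2a (0.37); Itm2a was also second for Comp (0.72), after Itgbl1 (0.59). Cilp was nearest to the centromere gene Cenpm and the B cell gene Cd72 (0.45 each). Among the 10 themselves the closest pair was Thbs2 and Comp, at 0.65. Every member except Tnc and Cthrc1 had a gene outside the group at a smaller distance than that.

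Among 36 other matricellular and adhesive matrix genes, 34 were tested; Spock1 and Spock3 were too low. At 10 min 0 were called (1 at an unadjusted p under 0.05; DESeq2 and limma 0), and at 1 h 1 was: Ccn1, an immediate early matricellular gene named after its values were seen (log2 3.06, adjusted p = 0.00217). At 6 h 10 were higher and 4 lower, at 24 h 13 and 12, and at 72 h 23 and 6. Over all genes tested, 16.3% were called higher and 12.2% lower at 6 h. These shares were 23.7% and 20.2% at 24 h, and 34.2% and 32.2% at 72 h. The median log2 fold change of the list was 0.1, -0.09 and 1.47 at the 3 times. The 4 lower at 6 h, also named after the fact, were Sparcl1, Spon2, Vtn and Matn4. Spp1, which encodes osteopontin, was 0.101, 0.104 and 0.267 CPM in sham and 958.3, 1198 and 1201 at 72 h (log2 12.7 ± 0.95, adjusted p = 5.56e-08). Lgals3, galectin 3, went from 2.88 ± 0.678 CPM to 508.7 ± 34.7 (log2 7.46 ± 0.45, adjusted p = 4.15e-09). Spock2, a proteoglycan of the Sparc family, was the most reduced, from 16.2 ± 3.09 CPM to 4.36 ± 1.87 (log2 -1.89 ± 0.4, adjusted p = 0.00075), after 55.6 ± 9.59 CPM at 6 h, where it was called higher (log2 1.78 ± 0.37, adjusted p = 0.00297).

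All 27 receptors and clearance proteins of the members were tested, many of them integrin subunits. None was called at 10 min or 1 h (2 and 1 at an unadjusted p under 0.05; DESeq2 and limma 0). At 6 h 8 were higher and 5 lower, at 24 h 15 and 5, and at 72 h 19 and 7, with Itga9, named outside the rule, the one not called. Of all genes tested, 16.3% were higher and 12.2% lower at 6 h. The shares of all genes were 23.7% and 20.2% at 24 h, and 34.2% and 32.2% at 72 h. Itga4, an integrin chain of leukocytes that binds fibronectin, went from 1.68 ± 0.0825 CPM in sham to 17.9 ± 2.06 at 72 h (log2 3.4 ± 0.28, adjusted p = 7.85e-09). Itgb3, the beta chain of the vitronectin receptor and of the platelet integrin, went from 2.81 ± 0.304 to 21.9 ± 4.22 (log2 2.95 ± 0.38, adjusted p = 5.12e-06). Cacna2d2, a calcium channel subunit, fell most, from 2.77 ± 0.831 to 0.472 ± 0.198 CPM (log2 -2.55 ± 0.54, adjusted p = 0.000556).

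Of 27 inducers and regulators of matrix genes, chiefly of TGF-beta, SRF and YAP signalling, 0 were called at 10 min and 1 h by edgeR. Unadjusted p-values under 0.05 numbered 2 and 4, DESeq2 called 0 and 1, and limma 0 at both. At 6 h 13 were higher and 2 lower (Tgfb3 and Ltbp1, named outside the rule), at 24 h again 13 and 2 (Ltbp1 and Ltbp4), and at 72 h 17 and 7. Of all genes tested, 16.3% were higher and 12.2% lower at 6 h. The shares of all genes were 23.7% and 20.2% at 24 h, and 34.2% and 32.2% at 72 h. Ltbp2, a fibrillin-binding protein of the latent TGF-beta binding family, went from a sham level of 2.95 ± 0.945 CPM up to 22.3 ± 7.63 at 24 h and 172.2 ± 33.0 at 72 h (log2 5.85 ± 0.3, adjusted p = 2.86e-10). Runx1, a transcription factor, went from 2.09 ± 0.574 to 32.9 ± 4.54 at 72 h (log2 3.97 ± 0.43, adjusted p = 8.85e-07). Tgfbr3, the TGF-beta co-receptor betaglycan, fell most, from 46.6 ± 4.5 to 23.0 ± 2.98 (log2 -1.02 ± 0.13, adjusted p = 2.44e-06).

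Of 23 processing and cross-linking enzymes, 9 were higher and 2 lower at 6 h (Adamts7 and, named outside the rule, Mmp2), 16 higher and the same pair lower at 24 h, and 19 higher with Adamts7 alone lower at 72 h. None was called at 10 min or 1 h by edgeR, with 3 and 1 at an unadjusted p under 0.05 (DESeq2 0 and 1, limma 0). The alternatives called at most 5 of the 23 at 10 min and 2 at 1 h. Of all genes tested, 16.3% were higher and 12.2% lower at 6 h. The shares of all genes were 23.7% and 20.2% at 24 h, and 34.2% and 32.2% at 72 h. P4ha3 went from 1 to 2 counts per sham library to 30.3 ± 3.04 CPM at 72 h (log2 8.44 ± 0.43, adjusted p = 1.7e-11). Adamts4, a protease that cleaves versican, was early, with 0.315 ± 0.195 CPM in sham, 94.8 ± 63.5 at 6 h (log2 8.17 ± 1.04, adjusted p = 0.000128) and 38.0 ± 11.6 at 72 h (log2 6.85 ± 1.05, adjusted p = 6.35e-05). Its 6 h libraries, at 167.5, 67.2 and 49.9 CPM, had the same order as those of Thbs1. Adamts7, a protease known to cut Comp, fell from a sham level of 39.5 ± 3.68 CPM to 18 ± 5.49 at 6 h (log2 -1.14 ± 0.16, adjusted p = 8.07e-05) and 18.7 ± 0.968 at 72 h (log2 -1.08 ± 0.16, adjusted p = 9.69e-06).

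Of the 12 fibrillar and associated collagens, 0 were called at 10 min or 1 h by edgeR. Unadjusted p-values under 0.05 numbered 6 and 0, against 1144 and 899 of all 16311 genes tested. DESeq2 called 1 and 0, and limma 0 at both times. The alternatives called at most 4 of the 12 at 10 min. At 6 h Col12a1 was higher, and 4 were lower: Col1a2, Col3a1, Col5a1 and Col14a1, which are named here outside the rule, with their values known. At 24 h 9 were higher and 0 lower, and at 72 h all 12 were higher. Of all genes tested, 16.3% were higher and 12.2% lower at 6 h. The shares of all genes were 23.7% and 20.2% at 24 h, and 34.2% and 32.2% at 72 h. The median log2 fold change of the 12 collagens was -0.45 at 6 h, 1.06 at 24 h and 4.18 at 72 h. Col11a1, a minor fibrillar chain, had 0 or 1 count in each sham library and 24.1 ± 10.6 CPM at 72 h (log2 9.3 ± 0.62, adjusted p = 1.35e-09). Col12a1, which links collagen fibrils, went from 1.16 ± 0.203 to 69.7 ± 24.8 CPM (log2 5.91 ± 0.41, adjusted p = 6.92e-09). Scaling by library totals in place of TMM left the direction of every called member against sham as it was.

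**Figure D5:**
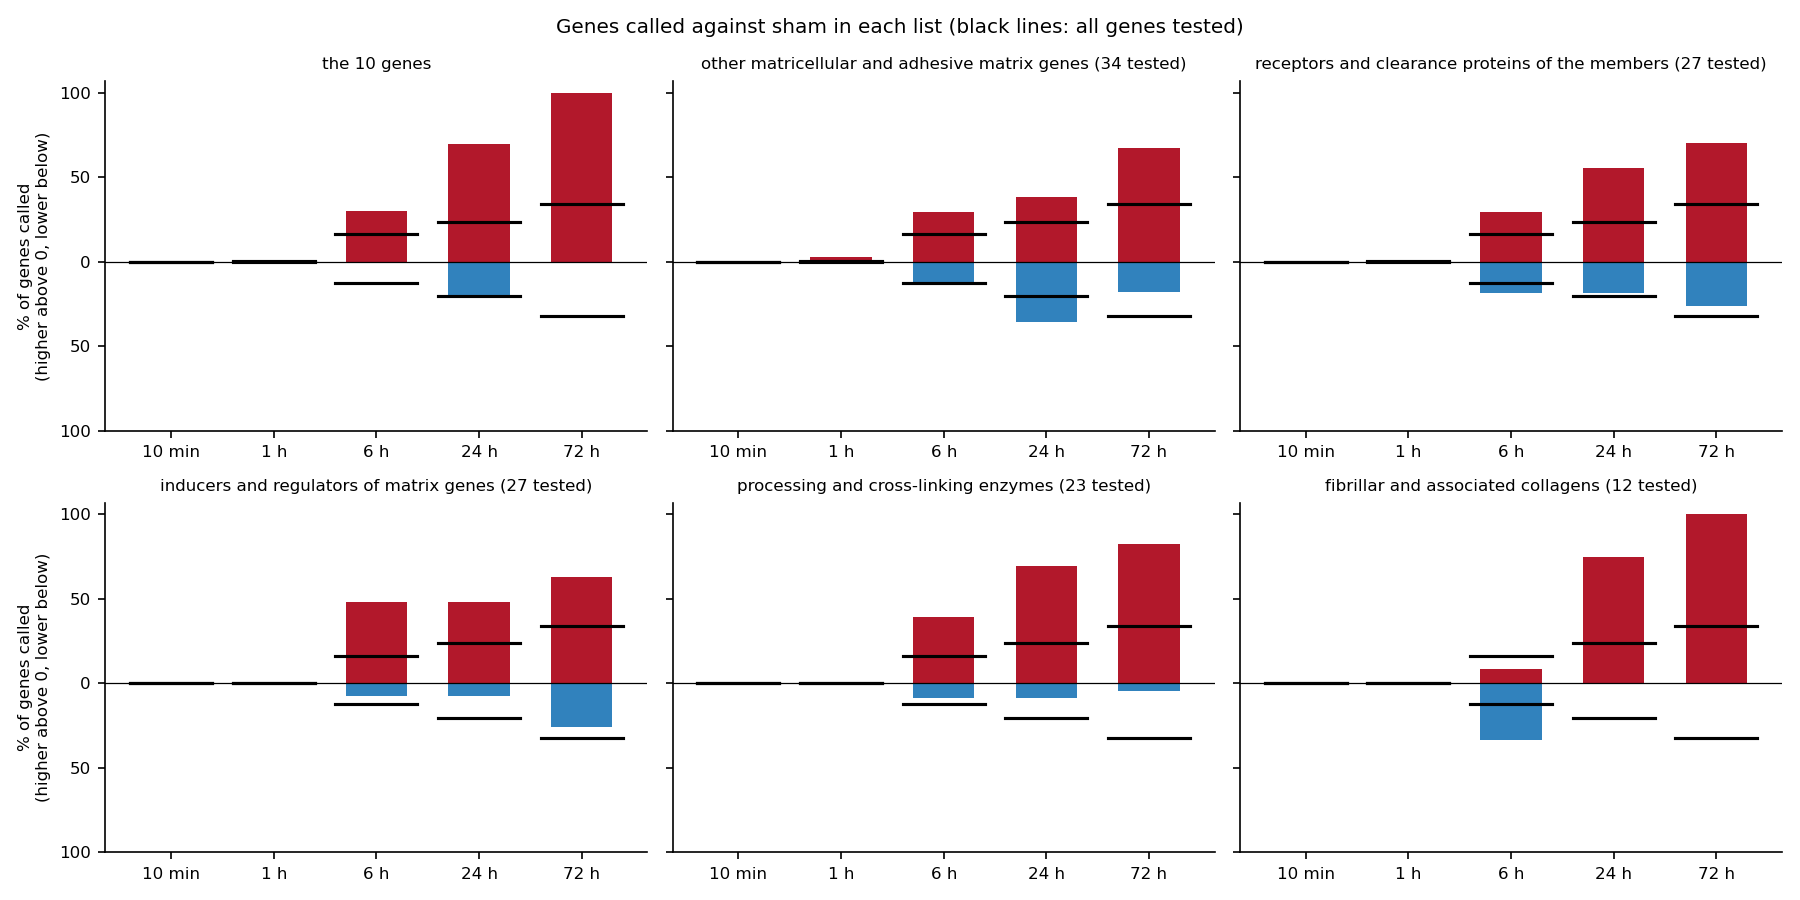
Percent of the genes of each list called higher (red, above 0) or lower (blue, below 0) than sham at each time, by edgeR adjusted p under 0.05; black lines give the same over all genes tested. At 72 h the 10 genes and the 12 collagens are all higher, and the other lists hold genes in both directions.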

How the data were processed

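RNA from 18 mice was reverse transcribed from poly(A) RNA with random hexamers and sequenced without molecular identifiers, per the labels' protocols. The authors deposited raw counts per gene and FPKM; reads were trimmed with cutadapt 1.18, aligned with HISAT2 2.1.0 to mm10 and counted with featureCounts, per the submitters' processing notes. The deposited FPKM columns of 6 h replicates 2 and 3 hold each other's values, so 2 columns were used exchanged. In R 4.3.3, edgeR 4.0.16 (TMM, filterByExpr, robust quasi-likelihood, Benjamini-Hochberg over 16311 genes, 14272 removed) was fitted to all 18 libraries by group; SE is the size of the log2 fold change over the root of F. DESeq2 1.42.0, limma 3.58.1 on log2(FPKM + 1), other scalings and filters, and each library left out were alternatives. The fit was tested on simulated counts with the same spread for every gene and few genes changed, at 72 h alone. These data hold far more changes and a less even spread, so that test does not speak for them there. Nothing in the labels says more of the mice than that they are separate, so p-values measure the spread between these mice. Named were the 10 genes, the 2 nearest profiles of each and, per list, the 2 largest increases and the largest decrease called at 72 h with a mean of at least 50 counts. The genes and lists were chosen with earlier results of these data known.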

Additional observations from a re-analysis of the deposited data

How the results depend on the processing

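At 10 min, 1 h, 24 h and 72 h against sham, leaving out any 1 library kept the number of the 10 genes called at 0, 0, 9 and 10; at 6 h it was 3 to 4, from 1 h to 6 h 2 to 4, from 6 h to 24 h 6 to 8 and from 24 h to 72 h 8 to 9. Fitting only the libraries compared called 1 at 1 h (Thbs1) and 5 from 6 h to 24 h, in place of 0 and 8. DESeq2 called 5 from 1 h to 6 h, in place of 3. Requiring 10 counts in every library left 7 of the 10 testable (Cthrc1, Tnc and Comp dropped out), of which 5 were called from 6 h to 24 h and 5 from 24 h to 72 h. The cause was not tested beyond these constructions. Deviations from the group mean of mice with the same replicate number had a mean correlation of 0.00732, against -0.00333 for different numbers. Over the 45 pairs with the same number it ran from -0.325 to 0.32. Deviations within a group cancel, which ties the mean for different numbers to that for the same number. These values therefore cannot settle whether the numbers pair mice. With the replicate number as a block, the counts of called members were the same except from 6 h to 24 h, where Cilp was lost (7, log2 1.33, adjusted p = 0.0721).

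Scaling by library totals put the all-gene median (log2) at -0.12, 0.2 and 0.61 at 6, 24 and 72 h against sham, and moved the share of calls that were higher from 57.2%, 54.0% and 51.4% to 40.6%, 75.5% and 79.9%. Between times that share moved from 59.2%, 50.9% and 48.4% to 45.7% (1 h to 6 h), 88.0% (6 h to 24 h) and 81.5% (24 h to 72 h), and among the few calls at 10 min from 41.7% to 77.8%. Thbs1 then differed by 0.13 from 6 h to 24 h and 0.08 from 24 h to 72 h, and by 0.65 at the latter with limma, against -0.19 and -0.32. Uncalled differences that changed sign when 1 library was left out had these ranges (log2). Against sham at 10 min: Sparc -0.03 to 0.18 and Thbs2 -0.36 to 0.01. At 1 h: Postn -0.08 to 0.22, Cthrc1 -0.66 to 0.88, Tnc -0.41 to 0.15, Thbs2 -0.02 to 0.39, Thbs4 -0.17 to 0.31 and Cilp -0.32 to 0.2. At 6 h: Cthrc1 -0.05 to 1.0 and Thbs2 -0.19 to 0.17. At 24 h: Cilp -0.14 to 1.13. From 10 min to 1 h: Thbs4 -0.3 to 0.18. From 1 h to 6 h: Postn -0.03 to 0.43 and Cthrc1 -0.21 to 0.95. From 6 h to 24 h: Thbs1 -1.65 to 0.47 and Thbs4 -0.72 to 0.51. From 24 h to 72 h: Thbs1 -0.79 to 1.14. Ratios against sham at 1 h: Comp/Thbs4 -0.17 to 0.43, Tnc/Fn1 -0.55 to 0.01, Cthrc1/Postn -0.59 to 0.61 and Cilp/Postn -0.31 to 0.16. Ratios at 6 h: Postn/Sparc -0.04 to 0.26 and Cthrc1/Postn -0.12 to 0.65.

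The number of all genes called at 10 min, 12, was 0 to 24 with 1 library left out, 360 with only the libraries compared, 26 without a filter, 60 with DESeq2 and 2 with limma. At 1 h, 48 became 190 with only the libraries compared, 95 with DESeq2 and 31 without sham replicate 2. Without 6 h replicate 1, 4639 became 2926 at 6 h. From 10 min to 1 h, 50 became 6 to 87 with 1 library left out, 244 with only the libraries compared and 128 with DESeq2. From 1 h to 6 h, 4003 became 2481 without 6 h replicate 1 and 2664 without 1 h replicate 2. From 6 h to 24 h, 4541 became 6880 with library totals and 1024 with only the libraries compared. With 1 to 17 counts per sham library, Cthrc1 and Tnc have sham levels that counting limits.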

Other observations

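The 3 mice at 24 h did not rank alike over the 10 genes. Replicate 3 had the most Thbs1 (712.0 CPM, against 150.1 and 76.0), Fn1 (749.1, against 299.7 and 247.6) and Thbs4 (46.3, against 15.2 and 11.9), and the lowest cardiomyocyte marker sum (25443 CPM, against 38386 and 39440). Replicate 2 had the most Postn (113.1 CPM, against 63.7 and 65.5), Sparc (1004, against 730.0 and 801.2) and Cilp (19.0, against 6.3 and 4.23), with the most Col1a1 (239.7, against 127.9 and 139.2) and the lowest neutrophil marker sum (39.8 CPM, against 162.1 and 693.1). Tnc (112.4 CPM, against 85.6 and 100.6) and Cthrc1 (2.78, against 1.04 and 1.98) were, like Thbs1, highest in replicate 3. Of the other fibroblast markers, Col1a2, Lum and Dpt were also highest in replicate 2. Pdgfra and Tcf21 were highest in replicate 3, and Dcn and Gsn in replicate 1. Thbs2 was lowest in replicate 3 and Comp in replicate 2.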
